A study of Mus musculus with 3 samples.

Results

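Arterial-gated endothelial cells were compared with pre-HSC-like cells, cells that carry both an endothelial gene and early blood genes, within single-cell RNA counts of the mouse aorta-gonad-mesonephros region (AGM). Members were chosen from the measured counts. A barcode entered with at least 1000 unique molecular identifiers (UMIs, each marking 1 captured transcript), at least 500 genes and at most 10% mitochondrial UMIs. An arterial-gated cell had at least 5 UMIs summed over Cdh5, Kdr, Emcn, Cldn5 and Plvap, no UMI of Runx1, Spi1 or Myb, and at least 2 UMIs summed over Gja4, Gja5, Dll4 and Sox17. A pre-HSC-like cell had at least 1 UMI of Cdh5, at least 2 summed over Runx1, Spi1, Myb and Hlf, fewer than 3 of C1qa, C1qb and C1qc together and fewer than 3 of Gp9, Gp1bb and Gp1ba together. These gates found 332 cells, 141 arterial-gated and 191 pre-HSC-like, among the 9383 barcodes that passed the filters and the 9492 deposited. No barcode met both gates. Because the gates read the same counts that are compared, every difference given here is a description with no test, and the 19 gate genes are left out of the findings.

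The study set out to reconstruct communication between AGM cells at the time blood stem cells arise. Mouse embryos at E10.5 with 28 to 32 somite pairs were dissected and their AGM regions pooled, so an animal cannot be followed. The labels give no strain, sex or treatment. Of the 3 sorted populations, 1 was live Ter119- niche cells, 1 was endothelial cells (Ter119-CD31+VCad+CD41-cKit+) and 1 was T1-preHSCs, the type 1 precursors of haematopoietic stem cells (HSCs) (Ter119-CD31+VCad+CD41lowcKit+), each put on 2 lanes of a droplet instrument. The deposited matrix pools all of them under 8 barcode suffixes, called libraries 1 to 8 here, and no label ties a library to a sort. The 2 lanes described for each of the 3 populations do not account for 8 suffixes, so libraries cannot be read as lane replicates.

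In the mid-gestation embryo, HSCs arise from the wall of the dorsal aorta. Specialised endothelial cells, the haemogenic endothelium, switch on the transcription factor Runx1, lose contact with their neighbours and round up into clusters in the vessel lumen, a step called the endothelial-to-haematopoietic transition. Pre-HSCs are cells of these clusters that still carry VE-cadherin (Cdh5) on their surface and need further maturation before they can repopulate blood. Arterial identity depends on Notch signalling through ligands such as Dll4 and on Sox17, whereas venous identity depends on Nr2f2.

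The 2 groups came mostly from different libraries. Libraries 5 and 6 held 54 and 74 arterial-gated cells and 26 and 24 pre-HSC-like cells, while libraries 7 and 8 held 1 arterial-gated cell and 130 pre-HSC-like cells. Libraries 1 to 4 held 12 and 11. Median UMIs per cell were 9054 in arterial-gated and 12564 in pre-HSC-like cells overall. Within library 5 they were 7223.5 and 7647.5, within library 6 they were 9531 and 7342, and the pre-HSC-like cells of libraries 7 and 8 reached 13965.5 and 15396. A ratio over all libraries therefore also compares libraries, so each difference is given with its value within libraries 5 and 6. Of all barcode sequences, 54 recurred in more than 1 library, and 1 member, an arterial-gated cell, shared its sequence with a barcode outside both groups.

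Counts were summed over the cells of a group and expressed as CPM (the count scaled to 1000000 UMIs of the group), with exact Poisson intervals at 95% that cover counting error only. Ratios are log2((CPM + 10) / (CPM + 10)), pre-HSC-like over arterial-gated, a scale that understates low genes. A gene was called where the ratio over all libraries was at least 1 in size with at least 50 CPM in the higher group, libraries 5 and 6 summed also reached a size of 1 the same way, and each of the pair had the same direction. Of 8022 genes with at least 10 CPM in either group, 120 (1.5%) were called higher in pre-HSC-like cells and 268 (3.34%) lower, 4.84% in all. The median ratio of all these genes was -0.04.

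**Figure D1:**
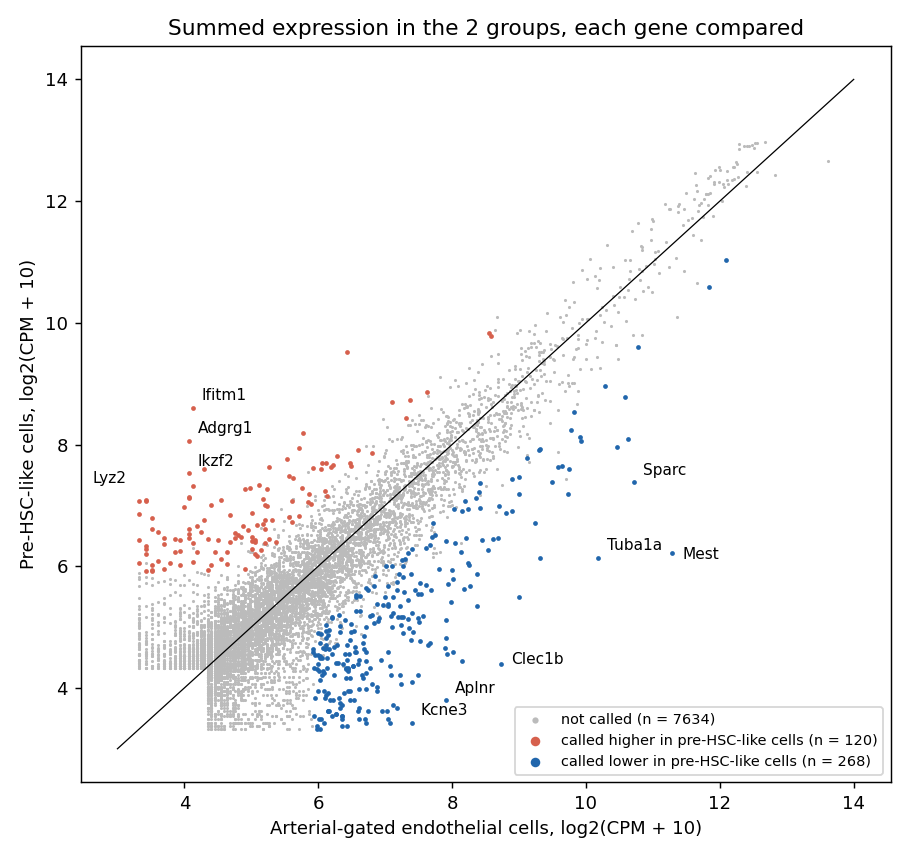
Summed expression of the 8022 genes in arterial-gated cells (horizontal) and pre-HSC-like cells (vertical), both as log2(CPM + 10), with 1 point per gene and a line of equal level. The 120 genes called higher lie above the line and the 268 called lower below it, with Mest the farthest below.

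The library demand removed many genes. On the size and level over all libraries alone, 164 genes (2.04%) would have been called higher and 375 (4.67%) lower, so 44 and 107 were lost within libraries 5 and 6. Ikzf1, a lymphoid and stem cell transcription factor named here after its values were seen, had a ratio of 2.62 over all libraries but 0.75 in libraries 5 and 6. Id3, a target of bone morphogenetic protein (BMP) signals and named in the same way, had -2.27 and -0.95. Among the called genes the lower ones had a median ratio of -1.99 over all libraries and -1.54 within libraries 5 and 6, with 206 of 268 smaller in size within them. The higher ones had 1.84 and 1.73, with 69 of 120 smaller.

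The gate fixes that pre-HSC-like cells hold blood genes, so its own genes are given as the makeup of the group and check no label. Runx1 was found in 159 of the 191 cells, Spi1 in 175, Myb in 114 and Hlf in 106, and Runx1 and Spi1 together in 144. At least 1 UMI of an arterial gate gene was present in 66 of them, and at least 2 in 29. The genes of the sort antigens outside the gate were read as a check. Kit, the receptor for stem cell factor, had 17.1 CPM in arterial-gated and 83.2 CPM in pre-HSC-like cells (ratio 1.78, called higher), and Pecam1, which encodes CD31, had 229 and 75.4 CPM (-1.49, called lower). Without library 5 the ratio of Kit was 1.70 and the gene was not called. Itga2b, which encodes CD41, had no UMI in the arterial-gated cells, where 3 counts would be 2.23 CPM, and 18.8 CPM in the pre-HSC-like cells. It was present in 40 of 191 pre-HSC-like cells, was not seen in those of library 5 and was not called. Ptprc, which encodes the leukocyte antigen CD45, stood at 0 and 11.7 CPM and was not called either. The gate gene Cdh5 was at 315 and 207 CPM over all libraries, but at 326 and 379 in library 5 and 328 and 369 in library 6.

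The arterial label was checked on genes outside the gate in the 1942 endothelial cells of libraries 5 and 6 that met the rest of the arterial gate. They were split by their summed arterial gate UMIs into 0 (1523 cells), 1 (291), 2 or 3 (85) and 4 or more (43), a split made after the data were seen. Hey1, a Notch target, stood at 4.37, 10.7, 25.6 and 92.0 CPM across these bins, and Unc5b, a guidance receptor of arteries, at 16.0, 20.6, 41.9 and 151 CPM. Both increased with the gate sum. Nr2f2, the transcription factor of venous identity, stood at 89.9, 83.2, 57.0 and 11.9 CPM, and Nrp2, a venous and lymphatic co-receptor, at 258, 194, 152 and 104 CPM. Flt4, the receptor of lymphatic and venous endothelium, did not follow this order, with 121, 130, 131 and 131 CPM. Stab1 (119, 115, 123 and 77.2 CPM) and Aplnr (309, 321, 277 and 163 CPM) did not decrease at every step either. Ephb4 and Dab2 decreased up to the bin of 2 or 3 but not beyond it. Most arterial-gated cells lie in the bin of 2 or 3, where venous genes were still at appreciable levels. Aplnr, Flt4 and Nrp2 were also present in the bin of 4 or more. The group thus carried venous genes beside arterial ones and is called arterial-gated rather than arterial.

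**Figure D2:**
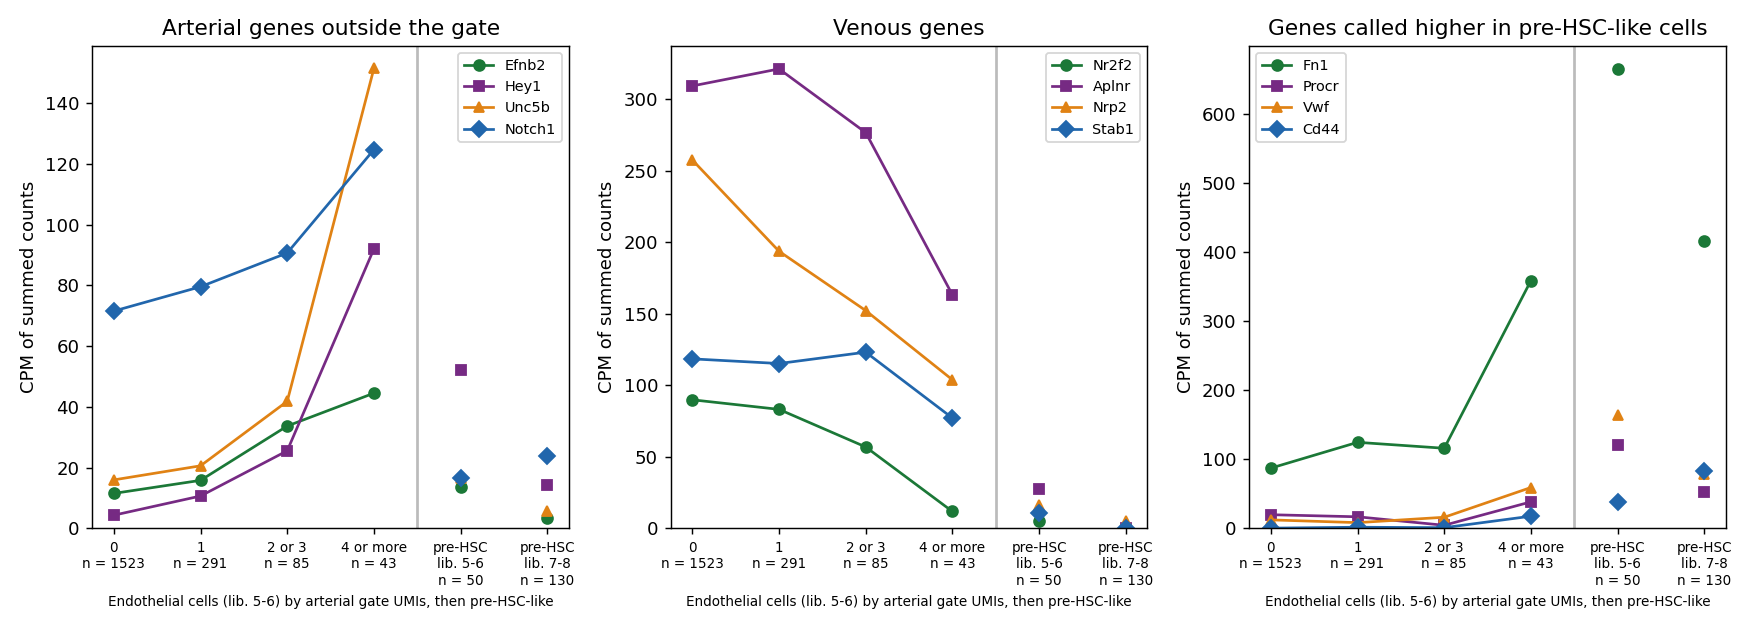
CPM of summed counts (vertical) in endothelial cells of libraries 5 and 6 by their summed UMIs of Gja4, Gja5, Dll4 and Sox17 (first 4 positions), then in pre-HSC-like cells of libraries 5 and 6 and of libraries 7 and 8. Left, Efnb2, Hey1, Unc5b and Notch1 are highest at 4 or more UMIs; middle, Nr2f2 drops from 89.9 to 11.9 CPM; right, Fn1 is at 359 CPM in the 43 endothelial cells with 4 or more UMIs.

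Markers of other cell types were read in both groups. C1qa, C1qb, Cx3cr1, Mrc1 and Adgre1, which define macrophages, were at 0 in both, although the gate itself limited C1q. The 10 macrophage markers summed to 5.21 CPM in arterial-gated and 134 CPM in pre-HSC-like cells, of which Lyz2 gave 125. The 8 megakaryocyte markers summed to 1.49 and 121 CPM, and the 7 granulocyte-monocyte markers to 0 and 141 CPM. In pre-HSC-like cells Pf4, a platelet granule gene, stood at 46.1 CPM and Mpo, a granule enzyme, at 25.0 CPM, while Elane had 1 UMI and Ctsg none. The 10 erythroid markers summed to 23.1 and 63.7 CPM and the 6 germ cell markers to 3.72 and 3.13 CPM. The 7 mesenchyme markers summed to 41.7 and 60.2 CPM with Col1a1 at 0 in both, and the 5 smooth muscle markers to 133 and 125 CPM. The 5 neural markers summed to 171 and 27.7 CPM, nearly all from Nes, with Pax6 at 0 in both. The 5 lymphoid markers summed to 0 and 2.34 CPM. The part of these cell types in the results was not tested.

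The 10 genes with the largest ratios in favour of pre-HSC-like cells were Ifitm1, Adgrg1, Lyz2, Celf2, Dok2, Prtn3, Ikzf2, Coro1a, Nrgn and Alox5ap, with ratios from 3.20 to 4.48. Ifitm1, an interferon-induced membrane protein, had 4.60 CPM in arterial-gated and 182 CPM in pre-HSC-like cells of library 5, and 5.25 and 136 CPM in library 6. The pre-HSC-like cells of libraries 7 and 8 held 375 and 451 CPM. The pre-HSC-like values of libraries 5 to 8 thus lay far above the arterial-gated values of libraries 5 and 6. Ifitm1 was chosen as the largest called ratio, so its direction in libraries 5 and 6 was fixed by that choice. The sums were 7.45 CPM (3.57 to 13.7) and 379 CPM (356 to 404), a ratio of 4.48 (3.72 in library 5 and 3.26 in library 6). The 5 highest cells held 33.4% of the 971 Ifitm1 UMIs, and 1 cell held 92. Germ cell barcodes of libraries 5 and 6, read for reference, held 2250 CPM of Ifitm1.

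Adgrg1, an adhesion receptor known as GPR56 and found on blood stem and progenitor cells, had 9.19 and 214 CPM in arterial-gated and pre-HSC-like cells of library 5, and 3.94 and 182 CPM in library 6. Libraries 7 and 8 held 254 and 272 CPM in pre-HSC-like cells. In libraries 5 to 8 the summed values of the pre-HSC-like cells ranged from 182 to 272 CPM. The 11 pre-HSC-like cells of libraries 1 to 4, with 32 Adgrg1 UMIs, are not in this range. Adgrg1 was chosen for its large ratio under a rule that demands the same direction in libraries 5 and 6. Its separation in those libraries was thus fixed by that choice. Single cells of the groups did overlap. The sums were 6.70 CPM (3.07 to 12.7) and 257 CPM (238 to 278), a ratio of 4.0. At least 1 UMI was present in 7 of 141 arterial-gated and 170 of 191 pre-HSC-like cells. With every cell thinned to 5000 UMIs and shallower cells left out, the shares were 2.44% (0.506 to 6.96, exact Clopper-Pearson interval) and 68.3% (61.0 to 75.1). The share in germ cell barcodes (median 8197 UMIs), read for reference, was 1.08%. Before thinning the shares were 4.96%, 89.0% and 1.40%.

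Ikzf2, which encodes the zinc finger factor Helios, had 6.89 and 203 CPM in arterial-gated and pre-HSC-like cells of library 5, 3.94 and 159 CPM in library 6, and 192 and 162 CPM in the pre-HSC-like cells of libraries 7 and 8. Its ratio was 3.47 over all libraries, 3.66 in library 5 and 3.60 in library 6, so it varied little with the library. Dok2, an adaptor protein of blood cell kinases, had 1 UMI in the arterial-gated cells and 125 CPM in the pre-HSC-like cells, with 171, 102, 134 and 118 CPM in libraries 5 to 8. Alox5ap, which helps make leukotrienes, had 7.45 and 150 CPM, with 160, 153, 149 and 146 CPM in those libraries. These 3 genes were as high in the pre-HSC-like cells of libraries 5 and 6 as in those of libraries 7 and 8.

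A second set of leading genes depended on the library. Celf2, an RNA-binding protein, stood at 74.8 and 34.0 CPM in the pre-HSC-like cells of libraries 5 and 6 and at 126 and 150 CPM in those of libraries 7 and 8, with 0.745 CPM in all arterial-gated cells. Nrgn, a calmodulin-binding protein, had 58.8 and 39.7 CPM against 104 and 116 CPM. Coro1a, an actin regulator of leukocytes, had 171 and 102 CPM against 178 and 207 CPM, and 9.68 CPM in arterial-gated cells. Their ratios over all libraries, 3.67, 3.27 and 3.30, came down to 2.59, 2.46 and 2.82 within libraries 5 and 6.

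Lyz2 and Prtn3 were the leading genes with no UMI in any arterial-gated cell. There 3 counts would be 2.23 CPM, and the exact interval of 0 counts reached 2.75 CPM. Lyz2, lysozyme of myeloid cells, had 144, 176, 114 and 123 CPM in the pre-HSC-like cells of libraries 5 to 8. Over the group it was 55.8-fold the level of 3 counts in the arterial-gated cells. Lyz2 has a close copy, Lyz1, and reads that fit both may have been lost or split. Prtn3, a granule protease of early myeloid cells, had 48.1, 17.0, 115 and 125 CPM and over the group was 47.6-fold the level of 3 counts. It was present in 8 of 50 pre-HSC-like cells of libraries 5 and 6 and in 90 of 130 of libraries 7 and 8. After thinning these shares were 9.52% (2.66 to 22.6) and 43.8% (35 to 52.8), and in germ cell barcodes 0.541%, so the level of Prtn3 differed between libraries within the pre-HSC-like group.

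The RefSeq promoter windows of Lyz2 and Prtn3 are shown because each held a RUNX word or an ETS word of the Spi1 type. Windows of the leading genes without either word are not shown. Both genes had no UMI in one group, and Runx1 and Spi1 served to choose the other. Each window is the 250 bases before the start of the transcript on GRCm38.p6, in the direction of transcription. Capitals mark the core word TGTGGT of RUNX factors (read here on the other strand, as ACCACA) and the word GAGGAAGT of ETS factors of the Spi1 type. The words do not overlap. The Lyz2 window is chr10:117282273-117282522 on the minus strand, and the Prtn3 window is chr10:79879417-79879666 on the plus strand.
Lyz2: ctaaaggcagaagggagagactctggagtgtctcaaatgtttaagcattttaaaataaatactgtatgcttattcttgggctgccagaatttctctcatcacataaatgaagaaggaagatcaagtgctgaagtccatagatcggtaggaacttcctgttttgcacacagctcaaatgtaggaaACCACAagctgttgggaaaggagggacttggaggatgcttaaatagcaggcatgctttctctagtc
Prtn3: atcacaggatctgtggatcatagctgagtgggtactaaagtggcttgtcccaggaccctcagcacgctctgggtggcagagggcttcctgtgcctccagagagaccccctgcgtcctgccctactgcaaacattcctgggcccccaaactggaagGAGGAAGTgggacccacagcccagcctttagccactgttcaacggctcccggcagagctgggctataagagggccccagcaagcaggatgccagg

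The RUNX word begins 66 bases before the start of Lyz2 and the ETS word 95 bases before that of Prtn3. Windows were found for 7 of the 10 leading genes (13 windows). The RUNX word was in 1 of these windows and the ETS word in 1 other, and those are the windows shown. Over all windows in the RefSeq set 14% held TGTGGT on either strand, over those of the genes compared 10.3%, over genes called higher 11.9% and over genes called lower 11.9%. For GAGGAAGT the shares were 2.44%, 2.26%, 4.90% (7 of 143 windows) and 2.53% (7 of 277). For ACAAAG, a word of SOX factors, they were 16.5%, 11.6%, 9.09% and 8.66%. No other word was searched. The RUNX word was thus as frequent before genes called higher as before genes called lower.

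The 10 genes with the largest ratios in favour of arterial-gated cells were Mest, Clec1b, Aplnr, Tuba1a, Kcne3, Anxa2, Pcdh17, Akap12, Flt4 and Cald1, with ratios from -3.50 to -5.08. Mest, an imprinted gene of the hydrolase family that is abundant in embryonic mesoderm, had 2410 CPM in arterial-gated and 289 CPM in pre-HSC-like cells of library 5, and 2535 and 352 CPM in library 6. Libraries 7 and 8 held 23.0 and 11.8 CPM in pre-HSC-like cells. The sums were 2490 CPM (2406 to 2576) and 64.1 CPM (54.6 to 74.7), a ratio of -5.08, which came down to -3.02 in library 5 and -2.81 in library 6. The pre-HSC-like cells thus lay below the arterial-gated ones in libraries 5 and 6, and those of libraries 7 and 8 lay farther below, set against arterial-gated cells of other libraries.

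**Figure D3:**
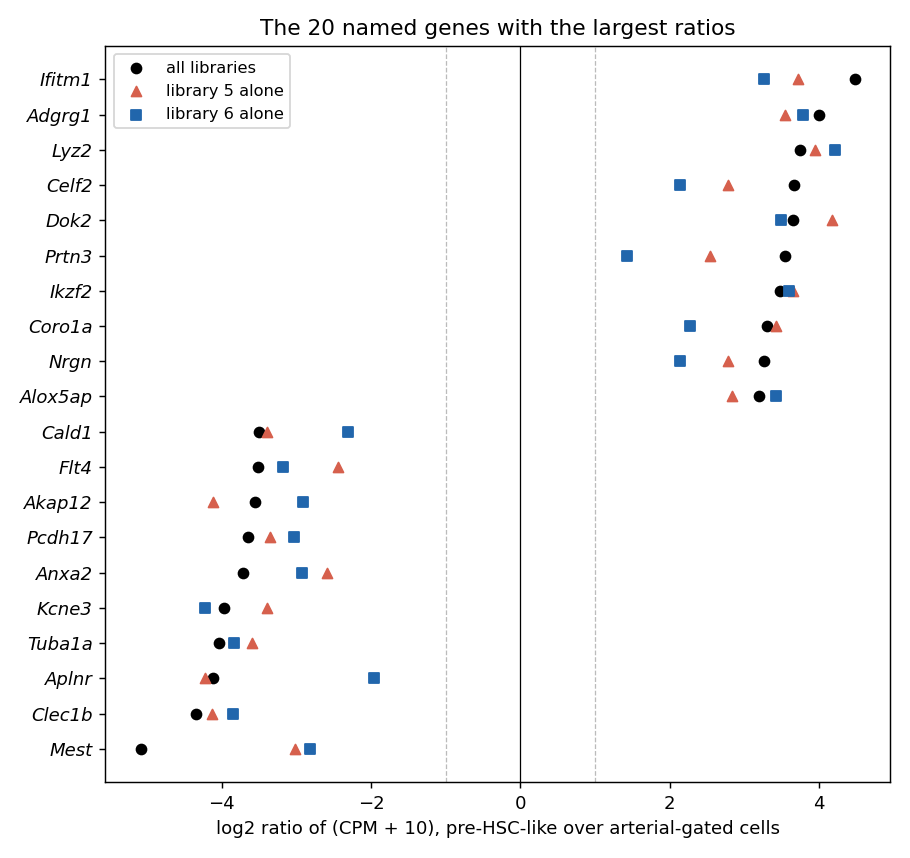
Log2 ratio of (CPM + 10), pre-HSC-like over arterial-gated cells, for the 20 leading genes, over all libraries (circles), in library 5 (triangles) and in library 6 (squares), with dashed lines at a size of 1. The call rule fixed that all 20 have the same direction in both libraries, and the size of Mest moves from -5.08 to -3.02 and -2.81.

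Most arterial-gated cells were high in Mest, and most pre-HSC-like cells had none. In arterial-gated cells of libraries 5 and 6, 122 of 128 had at least 5 Mest UMIs and 1 had none. In pre-HSC-like cells of these libraries 34 of 50 had none and 10 had 1 to 4 UMIs. The 6 cells with at least 5 UMIs held 97 of the 116 UMIs. In libraries 7 and 8, 110 of 130 had none and 1 had at least 5. For reference, germ cell barcodes of libraries 5 and 6 held 34.2 CPM. The part of free RNA and of the germ cells' own transcripts in that value was not tested. Mesenchyme barcodes, 221 of 222 from libraries 1 to 4, held 1688 CPM. The 289 and 352 CPM in pre-HSC-like cells were above the germ cell level and came from few cells.

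**Figure D4:**
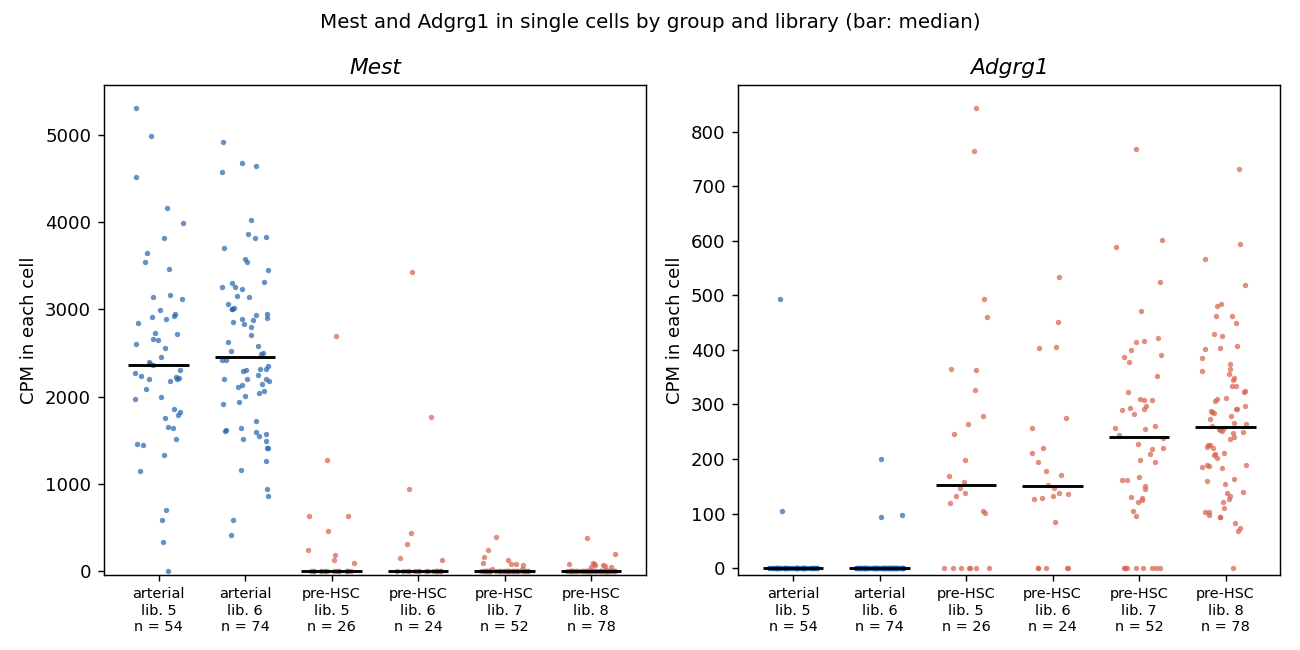
CPM of Mest (left) and Adgrg1 (right) in each cell, by group and library, with bars at the median and n the number of cells. The median of Mest is 2369 and 2457 CPM in arterial-gated cells of libraries 5 and 6 and 0 in all 4 pre-HSC-like libraries, while the median of Adgrg1 is 0 in arterial-gated cells and 150 to 259 CPM in pre-HSC-like cells.

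The summed level of Mest is given by the number of blood gene UMIs, which the gate itself used, as a description with no test. It was 1632 CPM in 29 cells just outside the pre-HSC-like gate, with Cdh5 and 1 UMI of Runx1, Spi1, Myb or Hlf. Just inside, with 2 UMIs, 11 cells held 829 CPM. Cells with 3 or 4 UMIs (29) held 227 CPM, and cells with more (151) held 20.1 CPM. Within libraries 5 and 6 alone the same steps were 1641, 1095, 424 and 56.7 CPM over 25, 7, 18 and 25 cells, against 2490 CPM in arterial-gated cells. Few cells carried these sums. In libraries 5 and 6, at least 5 Mest UMIs were found in 21 of the 25 cells just outside, in 2 of 7 cells with 2 blood gene UMIs, in 3 of 18 with 3 or 4 and in 1 of 25 with more. The 7 cells just inside held 3 with any Mest UMI, so their sum came from few high cells and not from cells at an intermediate level. Adgrg1 stood at 14.7, 142, 233 and 191 CPM in these steps. Median UMIs were 10133 just outside, 5637 just inside and 7717 at the highest sums.

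At the other borders of the gates, 74 arterial-gated cells had exactly 2 arterial gate UMIs and 322 cells with 1 lay just outside, with 2616 and 2320 CPM of Mest and 3.88 and 3.22 CPM of Adgrg1. Another 3 cells met the arterial gate but for 1 blood gene UMI. No cell lay at 4 or 5 summed endothelial UMIs. Of the pre-HSC-like cells 53 had 1 Cdh5 UMI, and 155 cells with none lay just outside. Between these, Prtn3 stood at 146 and 546 CPM and Tuba1a at 39.4 and 335 CPM.

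Clec1b, a C-type lectin-like receptor, had 352 and 10.7 CPM in arterial-gated and pre-HSC-like cells of library 5, 459 and 22.7 CPM in library 6, and 8.46 and 11.8 CPM in the pre-HSC-like cells of libraries 7 and 8. It was present in 106 of 141 arterial-gated cells and 18 of 191 pre-HSC-like cells (9.42%, against 1.86% of germ cell barcodes), and its ratio of -4.34 stayed at -4.13 and -3.84 in libraries 5 and 6. Tuba1a, an alpha-tubulin with near-identical relatives that makes its counts uncertain, had 1149 and 60.6 CPM (ratios -3.59 and -3.83 in libraries 5 and 6). Kcne3, a potassium channel subunit, had 159 and 0.781 CPM, the latter from 2 UMIs. Aplnr, the apelin receptor of venous and growing vessels, had 230 and 3.91 CPM. Its ratio was -4.22 in library 5 and -1.96 in library 6, where 1 pre-HSC-like cell held 9 of the 10 UMIs found in the group. Anxa2, Pcdh17, Akap12, Flt4 and Cald1 had ratios from -3.71 to -3.50.

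Regulators of the endothelial-to-haematopoietic step outside the gate were called higher in 9 of the 19 members compared and lower in none, with a median ratio of 1.44 (1.34 in libraries 5 and 6) against -0.04 for all genes. Besides Ikzf2 the largest were Bcl11a, a repressor of fetal globin genes (6.70 and 129 CPM, 3.05), Nfe2, a factor of the megakaryocyte and red cell lines (0.745 and 70.7 CPM, 2.91), and Meis1, a HOX cofactor of stem cells (9.68 and 98.8 CPM, 2.47). Cbfa2t3, Mycn, Etv6, Lyl1 and Tal1 followed, with ratios from 2.22 to 1.19. Erg (61.1 and 61.7 CPM), Fli1 (108 and 63.3 CPM) and Lmo2 (281 and 225 CPM), factors that endothelium and blood stem cells share, were not called. Gata2 (25.3 and 56.7 CPM) and Gfi1 (0 and 23.4 CPM) missed the size or the level of the call, although both lay above the arterial-gated value in libraries 5 and 6.

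**Figure D5:**
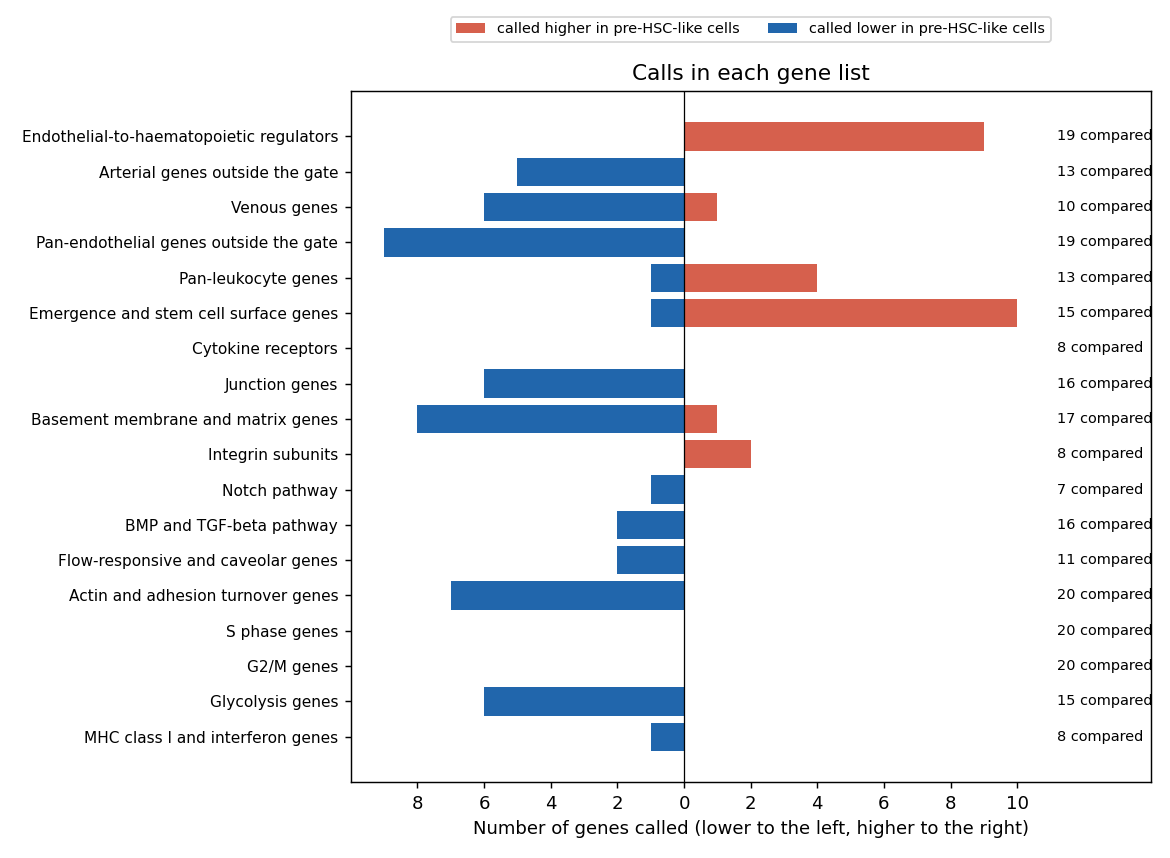
Number of genes called lower (left) and higher (right) in pre-HSC-like cells in each of the 18 gene lists, with the number compared at the right edge. Calls in the list of regulators are all higher (9), and those in the pan-endothelial list all lower (9). Of all genes compared 1.5% are called higher and 3.34% lower.

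Surface genes of emerging and stem cells were called higher in 10 of 15 and lower in 1, against 1.5% and 3.34% of all genes compared. Their median was 1.6 (1.61 in libraries 5 and 6). Beside Ifitm1 and Adgrg1, Neurl3, a ubiquitin ligase gene used to mark haemogenic endothelium, had 11.5 and 171 CPM in library 5 and 2.63 and 125 CPM in library 6, and 112 and 103 CPM in the pre-HSC-like cells of libraries 7 and 8 (ratio 2.97). Angpt1, a ligand of the Tie2 receptor, had 1.49 and 87.5 CPM (3.09). Ly6e, Ifitm3, Cd47, Kit, Procr and Cd44 made up the rest of the higher genes. Esam, an adhesion molecule shared by endothelium and stem cells, was the lower one (437 and 108 CPM, -1.92).

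Pan-leukocyte genes gave 4 higher calls and 1 lower among 13, against 1.5% and 3.34% of all genes compared. Their median of 1.89 dropped to 1.07 within libraries 5 and 6. The higher ones were Coro1a, Ptpn6, a phosphatase of blood cell signalling (5.21 and 66.4 CPM), Laptm5, a lysosomal protein (39.5 and 165 CPM), and Arhgdib (56.6 and 197 CPM), whose call was lost without library 5 (1.62). Lcp1, the actin bundler L-plastin, was lower, with 127 and 54.3 CPM, but its ratio of -1.09 became -0.64 without library 6 and was then not called. Tyrobp and Fcer1g, signalling adaptors of myeloid cells, stood at 30.9 and 68.4 CPM over all pre-HSC-like cells. Neither was called, since Tyrobp had no UMI in the pre-HSC-like cells of libraries 5 and 6 and Fcer1g had a ratio of 0.92 there.

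Endothelial genes outside the gate were lower in 9 of 19 and higher in none, against 3.34% and 1.5% of all genes compared. Their median was -1.71, or -0.88 in libraries 5 and 6. Ets1, an endothelial transcription factor, had 158 and 17.6 CPM (-2.61), Crip2 841 and 135 CPM (-2.55), Robo4, a guidance receptor of vessels, 64.8 and 3.91 CPM (-2.43), and Flt1, a receptor of vascular endothelial growth factor, 292 and 56.3 CPM (-2.19). Crip2 differed among the pre-HSC-like cells, with 337 and 403 CPM in libraries 5 and 6 and 116 and 78.9 CPM in libraries 7 and 8. Cd34 (610 and 441 CPM), Tie1 (112 and 82.0 CPM) and Tek (57.4 and 30.1 CPM) were not called. The pre-HSC-like cells thus still held these 3 endothelial transcripts.

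Arterial genes outside the gate were lower in 5 of 13 and higher in none, against 3.34% and 1.5% of all genes compared. Their median was -1.6, or -0.74 in libraries 5 and 6. Nrp1, a co-receptor of vascular endothelial growth factor, had 303 and 182 CPM in library 5 and 326 and 108 CPM in library 6, and only 43.5 and 20.5 CPM in the pre-HSC-like cells of libraries 7 and 8. Its ratio was -2.50 over all libraries and -1.07 within libraries 5 and 6, just past the size for a call, which was lost without library 6. Igfbp3 (-2.38), Unc5b (-2.26), Acvrl1 (-2.24) and Notch1 (-1.76) were the others, and Unc5b too lost its call without library 6, at -2.25. Hey1 was not called. It stood at 44.3 CPM in arterial-gated and 52.3 CPM in pre-HSC-like cells of libraries 5 and 6, and at 14.3 CPM in the pre-HSC-like cells of libraries 7 and 8. The Notch list as a whole gave 1 lower call, Notch1 with 104 and 23.4 CPM, among 7 genes, and a median of -0.29.

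The venous list had the lowest median of all lists, -2.86, or -1.90 within libraries 5 and 6. Its genes were lower in 6 of 10 and higher in 1, against 3.34% and 1.5% of all genes compared. Besides Aplnr and Flt4 these were Stab1, a scavenger receptor (120 and 2.34 CPM, -3.40), Efna1, an ephrin ligand not specific to veins (232 and 13.7 CPM, -3.35), Nrp2 (159 and 7.03 CPM, -3.31) and Nr2f2 (51.4 and 1.56 CPM, -2.41). The exception was Vwf, which encodes von Willebrand factor of vessel walls and platelets. The median of the venous list was thus farther from 0 than that of the arterial list, a difference that was not tested.

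Vwf, Fn1 and Procr, named after their values were seen, went against the lists they stood in or depended on how strictly the arterial side was drawn. Vwf had 36.8 and 139 CPM in arterial-gated and pre-HSC-like cells of library 5, 23.6 and 193 CPM in library 6, and 87.0 and 73.3 CPM in libraries 7 and 8 (ratio 1.51). Fn1, the matrix protein fibronectin, had 188 and 577 CPM, 182 and 760 CPM, and 466 and 384 CPM in the same order (1.24). Procr, the protein C receptor of endothelium and stem cells, had 20.7 and 150 CPM, 11 and 90.8 CPM, and 65.3 and 44.9 CPM (1.6). All 3 were higher in the pre-HSC-like cells of libraries 5 and 6 than in those of libraries 7 and 8.

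In the 43 endothelial cells of libraries 5 and 6 with at least 4 arterial gate UMIs, Fn1 stood at 359 CPM (298 to 429), against 116 CPM (94.6 to 141) in the 85 cells with 2 or 3. Vwf stood at 59.4 CPM (36.3 to 91.7) against 16.3 CPM (8.90 to 27.3), and Procr at 38.6 CPM (20.5 to 66.0) against 4.65 CPM (1.27 to 11.9). For each of these 3 genes the intervals of the bins did not overlap. The intervals cover counting error and not the spread between cells. Genes and bins were chosen after their values were seen, so the non-overlap is a description. With the arterial side held to at least 4 gate UMIs (48 cells in all libraries), the ratios of pre-HSC-like over arterial-gated cells were 0.22 for Fn1, 0.64 for Vwf and 0.51 for Procr, and none was called. Cdkn1c, a cell cycle inhibitor, had 145 CPM (108 to 192) against 61.6 CPM (46.2 to 80.6), and its ratio of 1.32 became 0.61. Cd44, the hyaluronan receptor, had 17.8 CPM (6.54 to 38.8) against 1.16 CPM (0.0294 to 6.48), and its ratio of 2.50 became 1.73. Neither was called with this stricter arterial side, nor without library 6, where the ratios of Cdkn1c and Cd44 were 1.21 and 2.12. Median UMIs were 6518 in the strict bin and 9511 in the other. The 9 to 30 cells with a UMI behind Procr, Vwf, Fn1 and Cdkn1c in the strict bin, and the 5 behind Cd44, are few.

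Basement membrane and matrix genes were lower in 8 of 17 and higher in 1, Fn1, against 3.34% and 1.5% of all genes compared. Their median was -1.76, or -1.0 in libraries 5 and 6. Sparc, a matrix-binding glycoprotein, had 1595 and 406 CPM in library 5, 1835 and 289 CPM in library 6, and 149 and 103 CPM in the pre-HSC-like cells of libraries 7 and 8 (-3.35). Germ cell barcodes of libraries 5 and 6 held 260 CPM of Sparc, near the level of the pre-HSC-like cells there. The part of free RNA in either value, and of the germ cells' own transcripts in the germ cell value, was not tested. Col15a1, Lama4, Nid2, Nid1, Lamb1, Col4a1 and Hspg2, of the basement membrane, had ratios from -2.93 to -1.93. Junction genes were lower in 6 of 16, against the same 3.34%, with a median of -1.21. They were Jup, which encodes plakoglobin (81.9 and 10.55 CPM), Ctnna1, alpha-catenin (169 and 36.7 CPM), Nectin2, listed in the file as Pvrl2 (153 and 33.6 CPM), Cgnl1 (128 and 27.7 CPM), Afdn, listed as Mllt4, and Gja1.

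Integrin subunits gave 2 higher calls among 8 and none lower, against 1.5% and 3.34% of all genes compared. Their median was -0.56. Itgb3, which pairs with CD41, had 2.98 and 78.1 CPM (2.76), and Itga4, which binds fibronectin and VCAM1, 15.6 and 104 CPM (2.16). Itgb1 was at 226 and 148 CPM and Itga6 at 84.2 and 54.3 CPM, and neither was called. Actin and adhesion turnover genes were lower in 7 of 20, against the same 3.34%, with a median of -1.01. Marcks had 320 and 30.9 CPM (-3.01), Vim, the intermediate filament vimentin, 1572 and 261 CPM (-2.54), Rhoj, a small GTPase of endothelium, 235 and 42.2 CPM (-2.23) and Cdc42ep1 55.1 and 7.42 CPM (-1.90). Tpm4, Cnn3 and Rhob completed the set. The calls among matrix, junction, integrin and actin genes were thus all lower apart from Fn1, Itgb3 and Itga4. Without library 6 Cgnl1 (-1.71) and Cdc42ep1 (-1.48) were not called.

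Signalling lists other than these gave at most 2 calls each. Of all genes compared 1.5% were called higher and 3.34% lower, and these short lists were not tested against those shares. The BMP and TGF-beta list had 2 lower genes of 16, Acvrl1 (61.1 and 5.08 CPM) and Eng (193 and 71.9 CPM), a receptor and co-receptor of endothelium, and none higher. Its median was -0.64, or -0.28 in libraries 5 and 6. Flow-responsive and caveolar genes had 2 lower of 11, Plpp3, a lipid phosphatase (71.5 and 1.56 CPM), and Klf6 (119 and 54.3 CPM), with a median of -1.0. Klf6 at -1.01 lost its call without library 6 (-0.77) and without library 8 (-0.97). Klf2, the main flow-responsive factor, was at 19.4 and 4.69 CPM and below the level of the call. None of the 8 cytokine receptor genes compared was called, and their median was -0.30. The MHC class I and interferon list had 1 lower gene of 8, Nfkbia (140 and 25.8 CPM), and a median of 0.14.

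Glycolysis genes were lower in 6 of 15 and higher in none, against 3.34% and 1.5% of all genes compared. Their median was -0.89, or -0.79 in libraries 5 and 6. Slc2a1, the glucose transporter, had 310 and 96.2 CPM in library 5, 302 and 73.8 CPM in library 6, and 32.6 and 32.3 CPM in the pre-HSC-like cells of libraries 7 and 8 (-2.56). Slc16a3, a lactate exporter, had 95.3 and 8.99 CPM (-2.47), Pkm, pyruvate kinase, 1520 and 427 CPM (-1.81), and Pgam1 622 and 230 CPM (-1.40). Eno1 and Pfkl were the other lower genes. The summed level of the 15 genes was 7853 and 4019 CPM in library 5 and 8243 and 3955 CPM in library 6. This list thus had nearly the same difference in both libraries.

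Cell cycle lists gave no call among 20 S phase and 20 G2/M genes, with median ratios of -0.05 and -0.45. Of all genes compared 4.84% were called, so no call among so few genes is near that share. Mki67 was at 162 and 174 CPM and Pcna at 54.4 and 52.0 CPM. The S phase genes summed to 2156 and 2147 CPM and the G2/M genes to 4105 and 3067 CPM. Single G2/M genes reached a size of 1 without meeting the whole rule. They were Cdk1, a cyclin-dependent kinase (256 and 115 CPM, -1.09), and Plk1, a mitotic kinase (77.5 and 33.6 CPM, -1.0), over all libraries. Within libraries 5 and 6 they were Kif23 (-1.95), Cdc20 (-1.38) and Ccnb1 (-1.15). These 5 genes, named after their values were seen, were all lower in pre-HSC-like cells.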

How the data were processed

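The deposited file holds raw UMI counts per gene and barcode in 1 pooled matrix of 27998 genes (10x version 2 chemistry, per the labels' protocols). The authors used Cell Ranger (version not given) and mm10, per the submitters' processing notes. The deposited gene and barcode names have no measured unit (other). The 3 GEO samples are 1 per sort and no file maps barcodes to them, so the matrix was treated as 1 sample and differences carry no test and no standard error. The 2 lanes per population are technical, and which suffixes they correspond to is not stated. All barcodes together held 78653331 UMIs, with a median of 7598 in those kept. Shares have exact Clopper-Pearson intervals at 95%.

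Gates, sums, ratios and calls were computed with Python 3.11.15, numpy 2.4.6, scipy 1.17.1 and pandas 2.3.3. The call rule was run on simulated sums with known fold changes and counting error only. That run does not cover spread between cells or libraries. Named genes were the 10 called genes with the largest and the 10 with the smallest ratio (without ribosomal protein, haemoglobin and unnamed gene models), up to 4 called members per list or all where a list had 5 or fewer, the sort antigens and Ptprc. Vwf, Fn1, Procr, Cd44, Ikzf1, Id3, Meg3, Plagl1, Peg10 and Cdkn1c, and members given to complete or contrast a list, were added after their values were seen. The members of both groups and the 18 gene and 12 marker lists were chosen with earlier results of these data known. Bins by gate sum and the reference barcodes were set after the data were seen: 215 germ cell barcodes with at least 5 germ marker UMIs in libraries 5 and 6, and 222 mesenchyme barcodes with at least 2 Pdgfra UMIs. Doublets were not removed except as an alternative. Promoter windows came from RefSeq (GRCm38.p6). The 21 alternatives changed libraries, weights, thresholds, filters and gates.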

Additional observations from a re-analysis of the deposited data

How the results depend on the processing

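Over the 21 alternatives the calls ranged from 48 to 197 genes higher and from 137 to 423 lower, and none was called the opposite way. Counts moved by more than 1.5 times with a pseudocount of 50 CPM (48 higher and 137 lower), with a level of 20 CPM (197 and 423) and, for lower genes, against all 2091 endothelial cells in place of the arterial-gated ones (171, of which 157 were shared with the main 268). Leaving out library 5, 6, 7 or 8 gave 118 to 133 higher and 243 to 279 lower. Of 72 named genes called, 46 kept their call in every setting and 26 lost it in at least 1. Of 1617 named values none reversed and 283 left the counting interval of the main value. In libraries 5 and 6 alone Prtn3 (2.11), Nrgn (2.46) and Cd44 (1.61) lay below 50 CPM and lost their call. Without library 5 Kit (1.70) and Arhgdib (1.62) lost theirs. Without library 6 Nrp1 (-2.58), Unc5b (-2.25), Cgnl1 (-1.71), Cdc42ep1 (-1.48), Klf6 (-0.77), Lcp1 (-0.64), Cd44 (2.12) and Cdkn1c (1.21) did. Doublet removal took out 474 barcodes, 11 of them arterial-gated and 11 pre-HSC-like, and left 125 higher and 279 lower. Gates read at 5000 UMIs per barcode left 67 and 99 cells, with 122 higher and 335 lower. No paired analysis was possible because no test was fitted and no file ties cells to samples. Low genes are limited by depth, since 3 counts are 2.23 CPM in the arterial-gated and 1.17 CPM in the pre-HSC-like cells.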

Other observations

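Because Mest is imprinted, 22 imprinted genes were looked up after its value was seen. Of 18 compared, 4 were called lower in pre-HSC-like cells and 1 higher, against 3.34% and 1.5% of all genes compared. The median ratio of the 18 was -0.75. Meg3, a maternally expressed long RNA, had 626 CPM in arterial-gated and 60.6 CPM in pre-HSC-like cells (ratios -1.94 in library 5 and -2.74 in library 6). Plagl1, a zinc finger factor, had 197 and 38.7 CPM, and Peg10 83.4 and 15.6 CPM. Cdkn1c was the higher one, with 86.4 and 231 CPM. H19 and Igf2, which neighbour each other, were abundant in both groups and not called, at 1575 and 1485 CPM and at 1690 and 1326 CPM. The imprinted genes thus did not move as 1 group.

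None of 86 ribosomal protein genes was called, against 4.84% of all genes compared, and this count was not tested against that share. Their median ratio was 0.43, or 0.27 in libraries 5 and 6, and together they made up 23.4% of UMIs in arterial-gated and 31.2% in pre-HSC-like cells.

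The 66 pre-HSC-like cells with at least 1 arterial gate UMI and the 125 with none held 139 and 26.9 CPM of Mest, 270 and 99.9 CPM of Sparc, and 72.0 and 123 CPM of Prtn3, while Adgrg1 was at 254 and 259 CPM in both. Of these cells 26 and 24 came from libraries 5 and 6 and 37 and 93 from libraries 7 and 8, and the part of the library in these values was not tested.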
